A study of Mus musculus with 15 samples.

Results

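The genes described here are 10 murine genes of antigen presentation on major histocompatibility complex (MHC) class I, out of 38924 genes in the deposited tables. They were chosen by symbol, and all 10 were found by their Ensembl identifiers and passed the filter on low counts. They encode the class I complex itself (B2m, H2-K1 and H2-D1), the peptide transporter and its partner (Tap1, Tap2 and Tapbp), immunoproteasome subunits (Psmb8 and Psmb9), a trimming peptidase (Erap1) and a transcriptional activator of the pathway (Nlrc5). RNA was measured in 15 libraries, 3 from each of 5 sorted mononuclear phagocyte (MP) subtypes of naïve C57BL/6 females. The labels give an age of 6 to 8 weeks, and the methods of the study allow up to 10. The spleen gave CD8+ CD11c+ MHCII+ DCs (DC1), CD4+ CD11c+ MHCII+ DCs (DC2) and Ly6C+ CD11b+ monocytes. The lung-draining LNs gave CD103+ CD11c+ MHCII+ DCs (DC1) and CD11b+ CD11c+ MHCII+ DCs (DC2). No animal was treated and none carried a modified allele. Each library pooled cells of 5 mice, the LN and spleen cohorts were different mice, and only LN DCs had a sort gate set at high surface MHCII. A difference between LN and spleen is therefore also a difference between cohorts and gates, and these cannot be told apart. No source states that the pools of a subtype were made on separate days, so that p values measure the spread between pools.

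Class I molecules show peptides from the inside of a cell to CD8+ T cells. The proteasome cuts cytosolic proteins, the Tap1 and Tap2 transporter carries the peptides into the endoplasmic reticulum, and tapasin (Tapbp) holds the empty heavy chain with its light chain beta-2 microglobulin (B2m) at the transporter until a peptide fits. DCs use the same machinery to show peptides of engulfed proteins, which is called cross-presentation and is best known in the DC1 lineage. Interferons raise most of these genes, and Nlrc5 drives them as a partner of promoter-bound factors.

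Libraries held 4531243 to 10233914 counts on genes, and between 15.8% and 22.8% of alignments in a library mapped to more than 1 place and were not counted. Levels between libraries are given as CPM, counts scaled to library size with TMM factors. Levels between genes are given as TPM, in which counts are first divided by exon length. Most subtype markers followed the labels. An exception was Itgae, the gene of CD103, which was at or below 19.6 TPM in LN CD103+ DCs and higher, at 39.0, 57.5 and 70.7 TPM, in splenic CD8+ DCs. The 5 DC1 genes summed to between 472.6 and 597 TPM in LN CD103+ DCs against at least 1659 TPM in splenic CD8+ DCs. In LN CD11b+ DCs they summed to between 295 and 412.6 TPM, so that they set the LN subtypes apart less. Of these 5, 4 were higher past the threshold in LN CD103+ than LN CD11b+ DCs. The 3 migratory DC genes of the list (Ccr7 and Fscn1 among them) summed to between 5862 and 11860 TPM in LN DC libraries and to between 139.8 and 391.9 TPM in splenic DC libraries, and the 5 monocyte genes summed to at least 5598 TPM in monocytes. T cell transcripts (5 genes) summed to between 71.2 and 147.9 TPM in LN DC libraries, 4.26 to 23.4 TPM in splenic DC libraries and at most 0.990 TPM in monocytes. B cell transcripts were highest in LN CD103+ DC replicate 1, at 284.9 TPM for the 5 genes. Neutrophil granule transcripts (5 genes) summed to between 359.7 and 614 TPM in monocytes and to at most 4.63 TPM in any DC library. Macrophage transcripts (5 genes) summed to between 103.1 and 178.1 TPM in DC1 libraries of either organ, 424.1 to 565.2 TPM in LN CD11b+ DCs, 774.2 to 853.4 TPM in splenic CD4+ DCs and 468.3 to 536.4 TPM in monocytes, and all 5 were lower past the threshold in DC1 than in DC2 of each organ. Plasmacytoid DC transcripts (4 genes, 2 tested) summed to at least 34.69 TPM in splenic CD8+ DCs and at most 19.46 TPM in any other library, and both tested genes were higher in splenic CD8+ than in splenic CD4+ or LN CD103+ DCs. Of 3 NK cell genes tested, 2 were higher in LN than splenic DCs of each lineage, with sums of at most 19.72 TPM. Transcripts of these other cells therefore move with the comparisons below. Class I genes are expressed by nearly all nucleated cells, and the part of other cells in the results was not tested.

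All 10 genes differed among the 5 subtypes (edgeR quasi-likelihood F test, adjusted p from 1.69e-09 for Nlrc5 to 0.000744 for Erap1). Of all 14456 genes tested, 73.5% also passed that test, so that passing it is not particular to these genes. LN CD103+ DCs held the highest mean CPM of each of the 10. Together the 10 genes took 5.73% ± 0.406 of all TPM in LN CD103+ DCs and 4.40% ± 0.213 in LN CD11b+ DCs (SD, n = 3). Their share was 1.75% ± 0.0526 in splenic CD8+ and 2.41% ± 0.0945 in splenic CD4+ DCs, and 2.29% ± 0.0889 in monocytes. B2m, H2-K1 and H2-D1 made up most of it, from 1.46 of 1.70 percentage points in splenic CD8+ DC replicate 2 to 5.69 of 6.16 in LN CD103+ DC replicate 2. In bulk RNA, more transcripts per cell and more cells of a kind that carries them cannot be told apart.

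**Figure D1:**
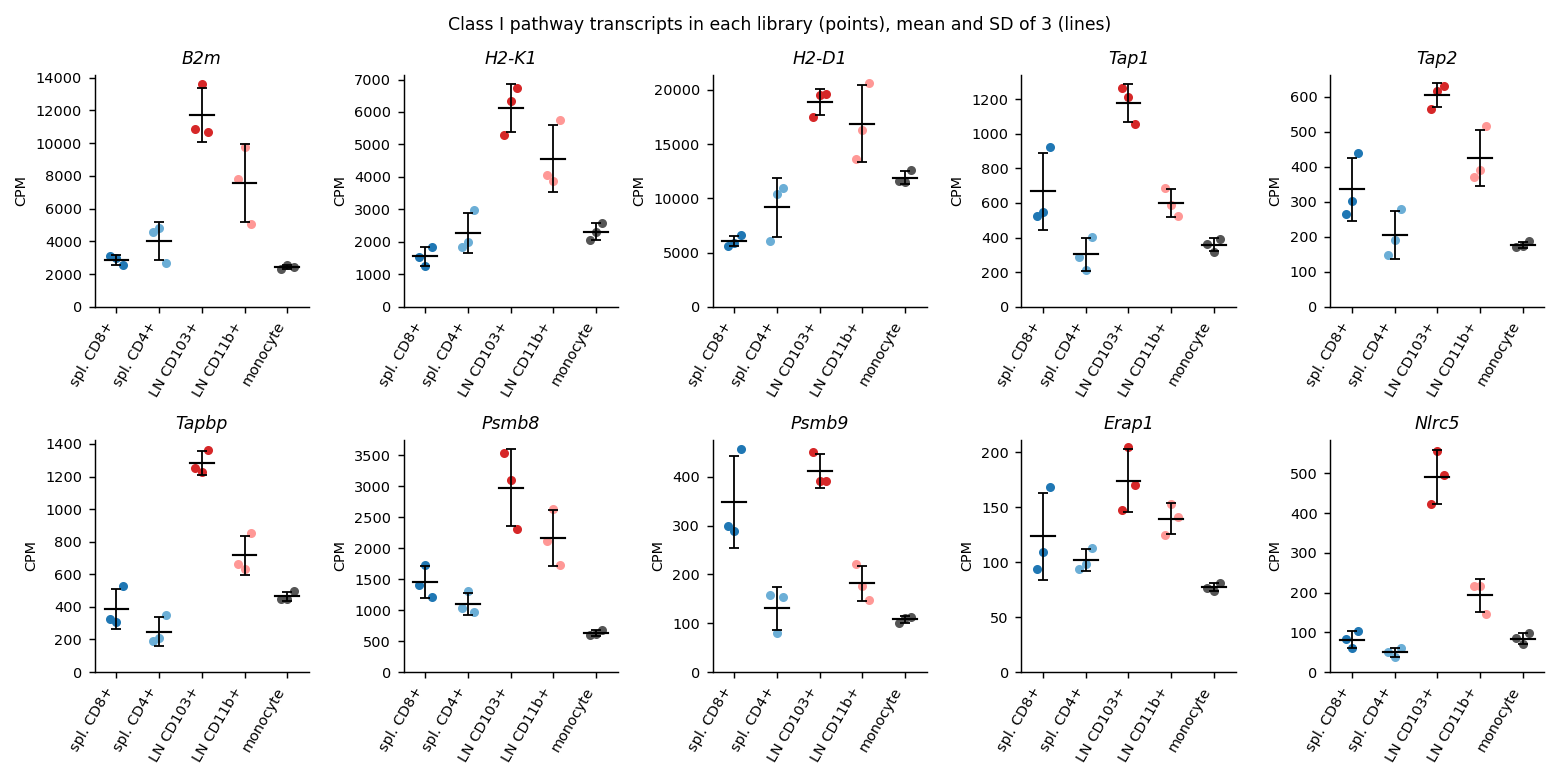
CPM of the 10 class I pathway genes in each of the 15 libraries. Points are libraries, coloured by subtype, the long bar is the mean and the whiskers are the SD of 3 libraries, and each axis starts at 0. LN CD103+ DCs have the highest mean in every panel, and in the Nlrc5 panel both LN DC subtypes (146 CPM and above) lie apart from the other 9 libraries (103 CPM and below).

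B2m (ENSMUSG00000060802, chromosome 2 from 122147686 to 122153083 of GRCm38, plus strand) is the light chain shared by all classical class I molecules. Its level was 10875, 13620 and 10700 CPM in the LN CD103+ DC libraries and 7821, 9776 and 5085 CPM in those of LN CD11b+ DCs. Splenic DCs had 3072, 3010 and 2539 CPM in the CD8+ and 4590, 4786 and 2653 CPM in the CD4+ libraries. Monocytes had 2318, 2544 and 2438 CPM. Every LN DC library lay above every splenic DC library, although the lowest LN DC value (5085 CPM) was close to the highest splenic one (4786 CPM).

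H2-K1 (ENSMUSG00000061232, chromosome 17 from 33996017 to 34000333, minus strand) encodes the K heavy chain of the H2-b haplotype carried by C57BL/6 mice. It had 5286, 6339 and 6740 CPM in the LN CD103+ libraries and 4044, 3879 and 5754 CPM in the LN CD11b+ libraries. It had 1548, 1265 and 1836 CPM in the splenic CD8+ libraries and 1841, 1995 and 2983 CPM in the splenic CD4+ libraries. The 3 monocyte libraries, at 2062, 2297 and 2580 CPM, fell within the range of the splenic CD4+ DCs.

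H2-D1 (ENSMUSG00000073411, chromosome 17 from 35262730 to 35267499, plus strand) encodes the D heavy chain. It had 17484, 19511 and 19645 CPM in the LN CD103+ libraries and 13622, 16346 and 20661 CPM in the LN CD11b+ libraries. Splenic CD8+ DCs were lowest with 5645, 5905 and 6587 CPM, and splenic CD4+ DCs spread from 6058 to 10995 CPM. Monocytes, at 11565, 11513 and 12576 CPM, lay above all 6 splenic DC libraries. For both heavy chains the LN DC and splenic DC libraries did not overlap. The pair has near copies in the genome: 9.63% of the 50-base stretches of H2-K1 transcripts and 12.8% of those of H2-D1 also occur in transcripts of another gene, as do 0.957% and 3.59% of their 100-base stretches, and reads from there could not be placed uniquely.

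The upstream bases of B2m and H2-K1 are shown because both changed with organ and their windows overlap annotated exons by at most 1 base, whereas the windows of the other genes lie within annotated exons of some transcript. They are the 250 bases before the RefSeq start of each gene, 5′ to 3′ on the gene's strand, at chr2:122147437-122147686 (plus) and chr17:34000348-34000597 (minus) of GRCm38.p6. Capitals mark matches to 4 motifs searched on both strands: ISRE (GAAANNGAA), GAS (TTCNNNGAA), kB (GGGNNTTCC) and the CCAAT box (CCAAT). Only these letters were searched, so that forms of the same elements with another length or spacing stay in small letters.
B2m: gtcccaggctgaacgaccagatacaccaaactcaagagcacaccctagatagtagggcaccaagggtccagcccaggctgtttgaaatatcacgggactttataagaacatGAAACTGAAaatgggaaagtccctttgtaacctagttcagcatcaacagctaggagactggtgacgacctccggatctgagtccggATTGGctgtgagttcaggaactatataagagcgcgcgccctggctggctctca
H2-K1: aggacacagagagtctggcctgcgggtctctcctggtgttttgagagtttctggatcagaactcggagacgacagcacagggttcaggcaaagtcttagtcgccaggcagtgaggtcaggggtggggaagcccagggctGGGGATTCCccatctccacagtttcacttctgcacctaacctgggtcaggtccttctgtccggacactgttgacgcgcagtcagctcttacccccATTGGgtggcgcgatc

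B2m held 1 ISRE match, 139 bases before its start, and H2-K1 1 kB match, 111 bases before its start. H2-D1 also held 1 kB match, 171 bases before its start, and the 29 bases around it (capitals) were set beside those of H2-K1, at chr17:34000440-34000468 (minus) and chr17:35262913-35262941 (plus), because both heavy chains share the stretch with 28 of 29 letters the same.
H2-K1: gcccagggctGGGGATTCCccatctccac
H2-D1: gcccagggctGGGGATTCCccatctcctc

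Over 27025 RefSeq promoters, 7.16% held an ISRE match, 7.18% a GAS match, 4.88% a kB match and 34.5% a CCAAT box in the same 250 bases. Among the other genes described here with a window in that table, Erap1 held 1 ISRE match (9 bases before its start), Psmb8 1 GAS match (97 bases before), and Tap1, Tapbp and Psmb9 held CCAAT boxes. Tap2 and Nlrc5 had no entry. The windows of Tap1 and Psmb9, which start back to back on opposite strands, shared 225 of their 250 bases. A match to letters says nothing about binding, and the lack of a match does not mean that a window lacks such an element.

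Tap1 (chromosome 17 from 34187553 to 34197225) and Tap2 (chromosome 17 from 34203527 to 34216321) encode the 2 chains of the peptide transporter. Tap1 had 1266, 1212 and 1055 CPM in the LN CD103+ libraries, 688, 588.7 and 527 CPM in the LN CD11b+ libraries, 526, 549.6 and 923 CPM in the splenic CD8+ libraries, 288, 212 and 406 CPM in the splenic CD4+ libraries and 364, 318 and 392 CPM in monocytes. All 3 LN CD103+ DC libraries were above every other library, and splenic CD8+ DC replicate 3 lay far above the other 2 of its subtype. Tap2 ran from 566 to 631 CPM in the LN CD103+ libraries, 370.2 to 518 CPM in the LN CD11b+ libraries, 267 to 438.5 CPM in the splenic CD8+ libraries, 147 to 281 CPM in the splenic CD4+ libraries and 171 to 187 CPM in monocytes.

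Tapbp (chromosome 17 from 33915899 to 33929288) encodes tapasin. It had 1254, 1228 and 1365 CPM in the LN CD103+ libraries and 663, 634 and 852 CPM in the LN CD11b+ libraries, and was at 325, 309 and 525 CPM in the splenic CD8+ libraries, 189, 207 and 351 CPM in the splenic CD4+ libraries and 446, 448 and 499 CPM in monocytes. Both LN subtypes were clear of all splenic DC libraries and of each other. Of its 100-base transcript stretches, 14.7% also occur in transcripts of Gm19412.

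Psmb8 (chromosome 17 from 34197721 to 34201454) and Psmb9 (chromosome 17 from 34181988 to 34187764) encode immunoproteasome subunits that take the place of the constitutive catalytic subunits Psmb5 and Psmb6. Psmb8 ran from 2303 to 3530 CPM in the LN CD103+ libraries, 1729 to 2630 CPM in the LN CD11b+ libraries, 1218 to 1732 CPM in the splenic CD8+ libraries, 964.5 to 1302 CPM in the splenic CD4+ libraries and 605 to 684 CPM in monocytes. Psmb9 followed lineage more than organ, with 451, 391 and 390.2 CPM in the LN CD103+ libraries and 299, 288 and 456 CPM in the splenic CD8+ libraries. The DC2 libraries had 220.4, 176 and 148 CPM in the LN and 157, 79.6 and 155 CPM in the spleen, and no DC1 library overlapped any DC2 library. Monocytes had 100.1, 109.9 and 113 CPM of Psmb9. Tap1 and Psmb9 overlap over 3.87% and 5.79% of their exon lengths, Tap2 overlaps other genes over 18.5% and Psmb8 over 6.8%, and reads there were counted for each gene without regard to strand.

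Erap1 (chromosome 13 from 74639872 to 74691875) encodes the peptidase that trims peptides in the endoplasmic reticulum. It ran from 148 to 205 CPM in the LN CD103+ libraries, 125 to 153 CPM in the LN CD11b+ libraries, 93.3 to 168 CPM in the splenic CD8+ libraries, 93.3 to 113 CPM in the splenic CD4+ libraries and 73.5 to 81.0 CPM in monocytes. No neighbouring pair in that order differed past the threshold.

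Nlrc5 (chromosome 8 from 94472763 to 94527272) encodes the activator of class I transcription. It had 422, 556 and 496 CPM in the LN CD103+ libraries and 216, 216 and 146 CPM in the LN CD11b+ libraries. It had 82.2, 59.9 and 103 CPM in the splenic CD8+ libraries, 51.2, 37.0 and 60.3 CPM in the splenic CD4+ libraries and 85.0, 70.8 and 97.1 CPM in monocytes. The lowest LN DC library was above the highest of the other 9.

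In TPM, B2m was the highest of the 10 genes in 10 libraries and H2-D1 in the other 5, among them all 3 of monocytes. B2m had means of 30753 ± 3607 TPM in LN CD103+ DCs and 7301 ± 112 TPM in monocytes. H2-D1 averaged 16537 ± 1148 TPM and H2-K1 5305 ± 697 TPM in LN CD103+ DCs. Psmb8 came next at 2453 ± 487 TPM, then Tapbp at 879.5 ± 70.0 TPM, and Nlrc5 and Erap1 were lowest at 145 ± 18.3 and 97.8 ± 14.6 TPM in the same cells (SD, n = 3). Within subtypes, the coefficient of variation (CV, the SD as a percent of the mean) of the 10 genes had a median of 6.43% in monocytes, 10.8% and 20.5% among the LN CD103+ and CD11b+ libraries, and 26.7% and 29.5% among the splenic CD8+ and CD4+ libraries.

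Ordered by mean CPM, each gene has 4 neighbouring pairs of subtypes, 40 in all, of which 13 differed past the threshold of 0.05. The top pair of 8 genes was LN CD103+ over LN CD11b+ DCs, and it passed for Tapbp and Nlrc5 (log2 fold changes of 0.84 ± 0.24 and 1.35 ± 0.24, SE). For Tap1 and Psmb9 the subtype next to LN CD103+ DCs was the splenic CD8+ DC, which differed from it for Tap1 (0.82 ± 0.24, adjusted p = 0.0101) and not past the threshold for Psmb9 (0.24 ± 0.24, adjusted p = 0.448). The step from LN CD11b+ DCs down to the next subtype passed for B2m, H2-K1, Tap1, Tapbp, Psmb8 and Nlrc5. Lower in the order, Tap2 and Nlrc5 were higher in splenic CD8+ than splenic CD4+ DCs, Psmb9 in splenic CD8+ than LN CD11b+ DCs, and Psmb8 in splenic CD4+ DCs than monocytes. The other pairs did not pass the threshold, and 6 of them did with the replicate block: B2m and Tap2 between the LN subtypes, H2-K1, H2-D1 and Tapbp between splenic CD8+ and CD4+ DCs, and H2-D1 between LN CD11b+ DCs and monocytes. For pairs of subtypes used in these orders, 39.9% of all genes differed between LN CD11b+ and splenic CD8+ DCs, 42.1% between monocytes and splenic CD8+ DCs, 48% between monocytes and splenic CD4+ DCs and 47.8% between monocytes and LN CD11b+ DCs.

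LN CD103+ DCs were compared with splenic CD8+ DCs to see how DC1s of the 2 organs differ. Of the 10 genes, 8 were higher past the threshold and none lower, against 23.8% of all genes higher and 21.8% lower. Nlrc5 rose most, 6.00-fold (log2 fold change 2.59 ± 0.25, adjusted p = 9.58e-08), followed by B2m at 4.08-fold (2.03 ± 0.26, adjusted p = 4.4e-06), H2-K1 at 3.95-fold, Tapbp at 3.32-fold and H2-D1 at 3.12-fold. Psmb8, Tap2 and Tap1 rose less, 2.05-fold, 1.80-fold and 1.77-fold, and Psmb9 (0.24 ± 0.24) and Erap1 (0.49 ± 0.21, adjusted p = 0.0594) did not pass. The median over the 10 genes was 1.34 on the log2 scale, and 0.00 over all genes tested. The Tap1 call was lost without splenic CD8+ DC replicate 1 or 2 (adjusted p = 0.0553 and 0.0642) and without TMM factors. Erap1 passed with the replicate number as a block (0.52, adjusted p = 0.0235) and without splenic CD8+ DC replicate 3 (0.78, adjusted p = 0.00409).

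DC2s of the organs were compared in the same way, LN CD11b+ against splenic CD4+ DCs. Again 8 of the 10 genes were higher in the LN cells and none lower, against 19.3% of all genes higher and 13.8% lower, with Psmb9 (0.48 ± 0.25, adjusted p = 0.148) and Erap1 (0.46 ± 0.21, adjusted p = 0.103) the ones that did not pass. Nlrc5 rose 3.90-fold (1.96 ± 0.24, adjusted p = 5.14e-06) and Tapbp 2.88-fold (1.53 ± 0.25). Tap2, H2-K1, Tap1, Psmb8, B2m and H2-D1 rose between 1.84-fold and 2.07-fold. The median was 0.98 over the 10 genes and 0.05 over all genes. B2m (0.89, adjusted p = 0.0766) and H2-D1 (0.86, adjusted p = 0.102) did not pass in a fit of only these 6 libraries or in limma (both 0.86, adjusted p = 0.0592 and 0.0532), and B2m did not pass without LN CD11b+ DC replicate 2 (adjusted p = 0.0658).

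Across both lineages, every LN DC library was above every splenic DC library for 5 of the 10 genes (B2m, H2-K1, H2-D1, Tapbp and Nlrc5), which 12.4% of all genes also showed. For Psmb8 the groups touched, with a lowest LN DC value of 1729 CPM and a highest splenic DC value of 1732 CPM. Of the T cell list, 4 of 5 genes were higher in LN DCs in each lineage, and 1 was lower in LN CD11b+ DCs. Without LN CD103+ DC replicate 1, the library with most B cell transcripts, 9 of the 10 genes were higher in LN CD103+ than splenic CD8+ DCs, Erap1 among them (0.60, adjusted p = 0.0422). A crossed pair, LN CD103+ DCs against splenic CD4+ DCs, had all 10 genes higher past the threshold, where 47% of all genes passed in either direction. The other, LN CD11b+ against splenic CD8+ DCs, had 6 genes higher and 1 lower, Psmb9 (-0.94 ± 0.25, adjusted p = 0.00503), where 39.9% of all genes passed. Tap1 (-0.15 ± 0.24), Tap2 (0.34 ± 0.23) and Erap1 (0.17 ± 0.21) did not pass there.

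**Figure D2:**
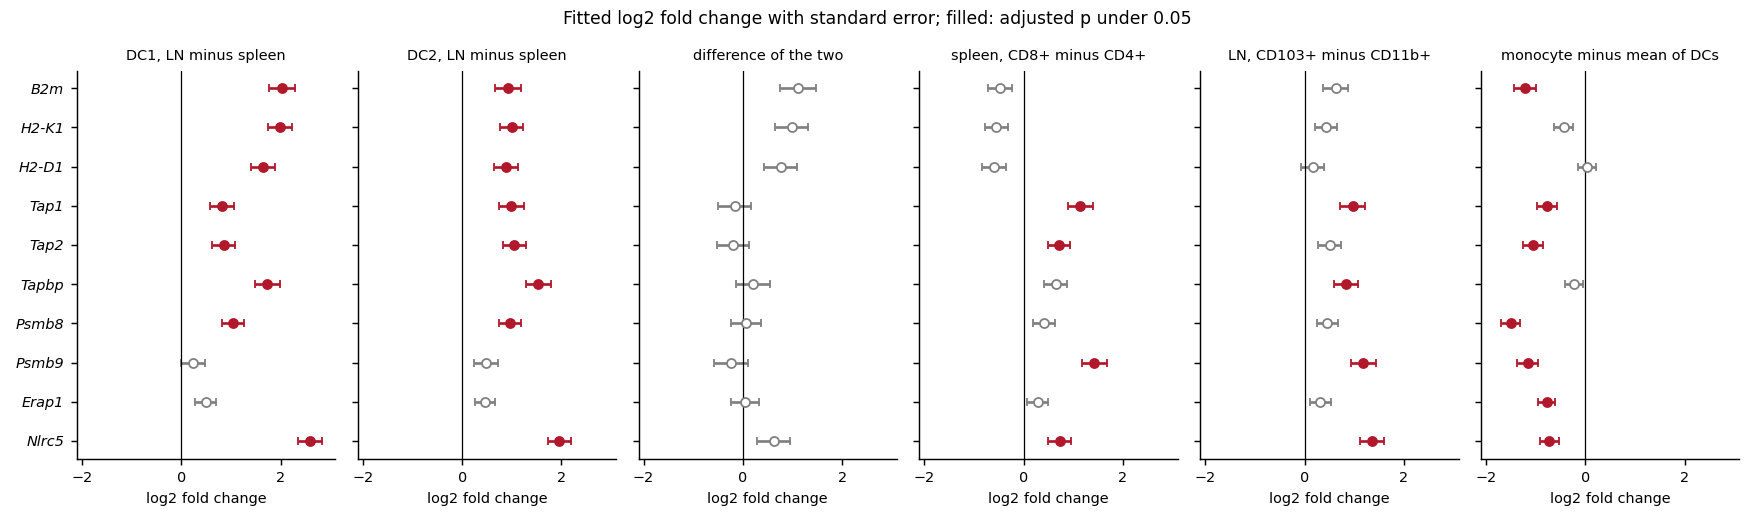
Fitted log2 fold change (x axis) of each gene (y axis) in 6 comparisons, with the standard error as whiskers. Filled red points have an adjusted p under 0.05 and open grey points do not. In both LN minus spleen panels 8 of 10 points are filled and all lie above 0, and in the panel of their difference none is filled.

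The LN against spleen change was then compared between lineages (the interaction, DC1 change minus DC2 change). None of the 10 genes passed, where 11.2% of all genes did, and 3 of the 10 had an unadjusted p under 0.05. The differences were 1.11 ± 0.36 for B2m (adjusted p = 0.0525), 0.98 ± 0.33 for H2-K1 (adjusted p = 0.0631), 0.76 ± 0.33 for H2-D1 (adjusted p = 0.156) and 0.62 ± 0.33 for Nlrc5 (adjusted p = 0.254). Those of Tap1, Tap2, Tapbp, Psmb8, Psmb9 and Erap1 lay between -0.24 and 0.20. With the replicate block 2 genes passed, B2m (1.12, adjusted p = 0.0105) and H2-K1 (0.98, adjusted p = 0.00955), and DESeq2 also called these 2 genes (adjusted p = 0.00701 and 0.0155). Without splenic CD4+ DC replicate 1, 2 genes passed, and 1 passed without splenic CD4+ DC replicate 3, LN CD11b+ DC replicate 2 or LN CD11b+ DC replicate 3.

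Within the spleen, CD8+ DCs were compared with CD4+ DCs. Psmb9 was 2.67-fold higher (1.42 ± 0.25, adjusted p = 0.000321) and Tap1 2.21-fold higher (1.14 ± 0.25, adjusted p = 0.00199), and Nlrc5 and Tap2 were 1.65-fold and 1.63-fold higher (adjusted p = 0.0292 and 0.0306). So 4 of 10 genes were higher and none lower, against 13.1% of all genes higher and 14.4% lower. B2m (-0.48 ± 0.25), H2-K1 (-0.55 ± 0.23) and H2-D1 (-0.60 ± 0.24) had negative values that did not pass (adjusted p = 0.172, 0.0855 and 0.0658). The replicate numbers paired these libraries, and with the replicate block 7 genes passed, the 4 above and H2-K1 (-0.53, adjusted p = 0.0223) and H2-D1 (-0.57, adjusted p = 0.0272) lower and Tapbp (0.64, adjusted p = 0.00867) higher. Tap2 and Nlrc5 were each lost with any 1 of 4 libraries left out. These were splenic CD8+ DC replicate 3 (adjusted p = 0.183 and 0.155) and splenic CD4+ DC replicates 1 (0.123 and 0.0526) and 2 (0.0922 and 0.129) for both, CD8+ DC replicate 2 for Tap2 (0.0584) and CD8+ DC replicate 1 for Nlrc5 (0.0607). Both were also lost in limma (adjusted p = 0.0618 and 0.0825) and in a fit of only the 6 libraries (0.103 and 0.0872).

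In the LN, CD103+ DCs exceeded CD11b+ DCs for 4 of 10 genes and fell below for none, against 5.22% of all genes higher and 7.73% lower. These were Nlrc5 (2.55-fold, adjusted p = 0.000635), Psmb9 (2.26-fold, adjusted p = 0.00304), Tap1 (1.96-fold, adjusted p = 0.012) and Tapbp (1.79-fold, adjusted p = 0.0271). The other 6 had positive values that did not pass, from 0.16 ± 0.23 for H2-D1 to 0.63 ± 0.25 for B2m. With the replicate block, B2m (0.67, adjusted p = 0.0259) and Tap2 (0.53, adjusted p = 0.0404) passed as well. The Tapbp call was lost without any 1 of 5 of the 6 libraries, all but LN CD11b+ DC replicate 3 (adjusted p between 0.0533 and 0.104), without TMM factors (0.73, adjusted p = 0.0666) and in limma (0.76, adjusted p = 0.0799), and the Tap1 call without LN CD11b+ DC replicate 3 (adjusted p = 0.0524). Taken side by side, Tap1, Psmb9 and Nlrc5 were higher in DC1 than DC2 in each organ.

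Monocytes were compared with the mean of the 4 DC subtypes. Of the 10 genes, 7 were lower in monocytes and none higher, against 26.5% of all genes lower and 26.4% higher. Psmb8 was 2.82-fold lower (-1.50 ± 0.19, adjusted p = 2.61e-06), B2m 2.32-fold, Psmb9 2.24-fold, Tap2 2.06-fold, Tap1 1.72-fold, Erap1 1.71-fold and Nlrc5 1.66-fold lower. H2-K1 (-0.44 ± 0.19, adjusted p = 0.0556), Tapbp (-0.23 ± 0.19) and H2-D1 (0.04 ± 0.18, adjusted p = 0.878) did not pass, and H2-K1 did with the replicate block (-0.43, adjusted p = 0.0127). The DC subtypes differed among themselves. Against LN CD103+ DCs all 10 genes were lower in monocytes, where 53.2% of all genes differed in either direction. Against splenic CD4+ DCs, 2 genes were lower (B2m and Psmb8) and 2 higher (Tapbp and Nlrc5), where 48% of all genes differed. Against splenic CD8+ DCs, H2-D1 was higher (0.98 ± 0.24, adjusted p = 0.00259) and 5 genes were lower, where 42.1% of all genes differed.

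Ratios of TPM within a library ask whether partners of 1 complex changed together. Of 15 comparisons (5 ratios in 3 contrasts, exact two-sided permutation tests with Benjamini-Hochberg adjustment over the 15), 1 passed. The ratio of Psmb8 to Psmb5, the constitutive subunit whose place it takes, was 6.67, 7.88 and 8.24 in the LN CD103+ libraries and 5.82, 6.80 and 9.02 in the LN CD11b+ ones. It was 3.13, 3.01 and 3.23 in the splenic CD8+ libraries, 2.88, 4.33 and 4.57 in the splenic CD4+ ones and 1.96, 1.87 and 1.98 in monocytes. No LN DC library overlapped a splenic DC library, and the LN ratio was 2.11-fold higher (exact permutation p = 0.00216, the smallest that 6 against 6 can give, adjusted p = 0.0325). That test takes the 6 libraries of a side as independent, but libraries of the same number deviated together between the subtypes of an organ. With the number as the unit, an exact permutation test of 3 against 3 can give no p under 0.1. With 5 libraries on 1 side the adjusted p was 0.0649 whichever was left out, and the difference stayed between 1.02 and 1.16 on the log2 scale. Psmb5 itself did not differ among the subtypes past the threshold (adjusted p = 0.137).

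Psmb9 to Psmb6 behaved otherwise. It was 1.90 ± 0.0418 in LN CD103+ DCs, 1.30 ± 0.291 in the LN CD11b+ libraries, 1.42 ± 0.162 in the splenic CD8+ libraries, 1.38 ± 0.211 in the splenic CD4+ libraries and 0.647 ± 0.0321 in monocytes (SD, n = 3). LN and splenic DCs overlapped (exact permutation p = 0.385, adjusted p = 0.482). Monocytes lay below all 6 splenic DC libraries for this ratio (2.16-fold lower), for Psmb8 to Psmb5 (1.79-fold lower) and for B2m to H2-K1 plus H2-D1 (2.12-fold lower), each with an exact permutation p = 0.0238, the smallest that 3 against 6 can give, and an adjusted p = 0.0714.

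The heavy chains were set against each other and against their light chain. H2-K1 to H2-D1 was 0.253 ± 0.0356 in splenic CD8+ and 0.253 ± 0.0574 in splenic CD4+ DCs, 0.320 ± 0.0202 in LN CD103+ and 0.268 ± 0.0301 in LN CD11b+ DCs, and 0.192 ± 0.0140 in monocytes, with no contrast past the threshold (exact permutation, lowest adjusted p = 0.153). B2m to the sum of the heavy chains was 1.28, 1.26 and 0.906 in splenic CD8+, 1.75, 1.16 and 0.571 in splenic CD4+, 1.44, 1.58 and 1.22 in LN CD103+ and 1.33, 1.45 and 0.579 in LN CD11b+ DCs, and 0.511, 0.553 and 0.483 in monocytes. Replicate 3 held the lowest value in 5 of 5 subtypes. Tap1 to Tap2 was higher in DC1 than DC2 libraries (1.35-fold, exact permutation p = 0.0238, adjusted p = 0.0714) and did not pass after adjustment. It was higher in 6 of 6 pairs of same-numbered DC1 and DC2 libraries of an organ, as was Psmb9 to Psmb6 (0.31 on the log2 scale), and a paired exact permutation test gave each p = 0.0312, the smallest that 6 pairs allow, and an adjusted p = 0.0781.

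**Figure D3:**
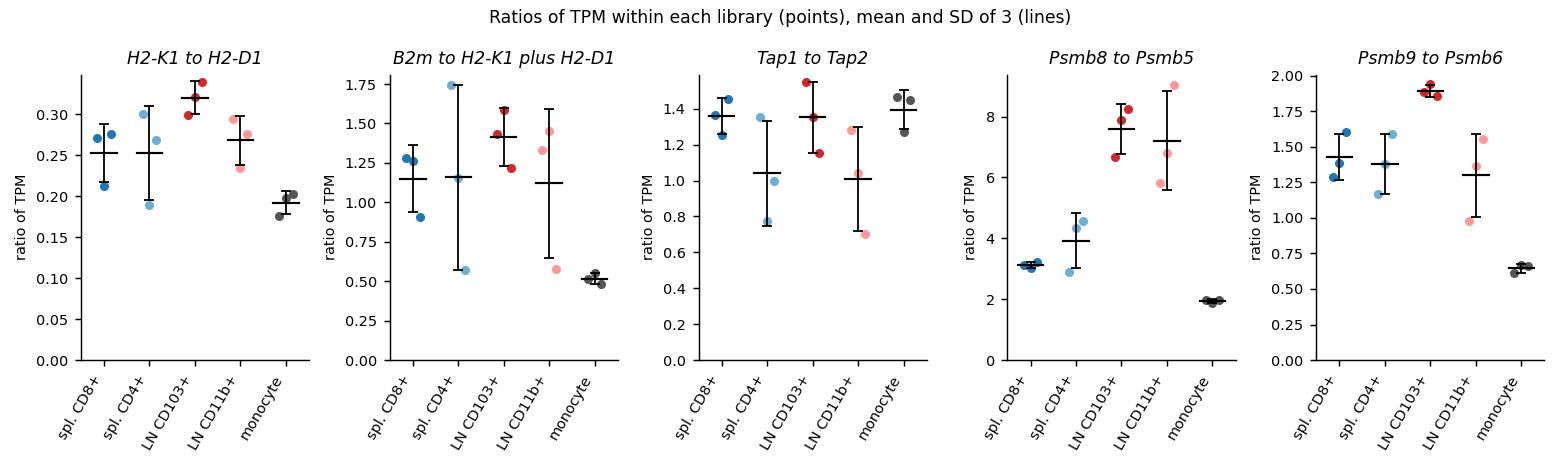
Ratios of TPM within each library (y axis, from 0) for 5 pairs of partners, by subtype (x axis). Points are libraries, the long bar is the mean and the whiskers are the SD of 3. Psmb8 to Psmb5 separates LN DCs (5.82 and above) from splenic DCs (4.57 and below), and monocytes are lowest in 4 of the 5 panels.

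A list of 39 further genes of the pathway was read beside the 10, of which 38 passed the filter. H2-T3 did not, with 10 counts in all, each in an LN DC library. Between LN CD103+ and splenic CD8+ DCs, 19 rose and 7 fell (23.8% and 21.8% of all genes), and their median was 0.42 (log2) against 1.34 for the 10 genes. In LN CD11b+ against splenic CD4+ DCs, 16 rose and 4 fell (19.3% and 13.8% of all genes). CD8+ against CD4+ splenic DCs gave 11 higher and 7 lower, against 13.1% and 14.4% of all genes. LN CD103+ against LN CD11b+ DCs gave 8 higher and none lower, against 5.22% and 7.73% (14 calls with the replicate block, 4 without LN CD103+ DC replicate 3). Monocytes against the mean of DCs gave 5 higher and 16 lower, against 26.4% and 26.5%. In the interaction 8 passed, as did 11.2% of all genes.

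**Figure D4:**
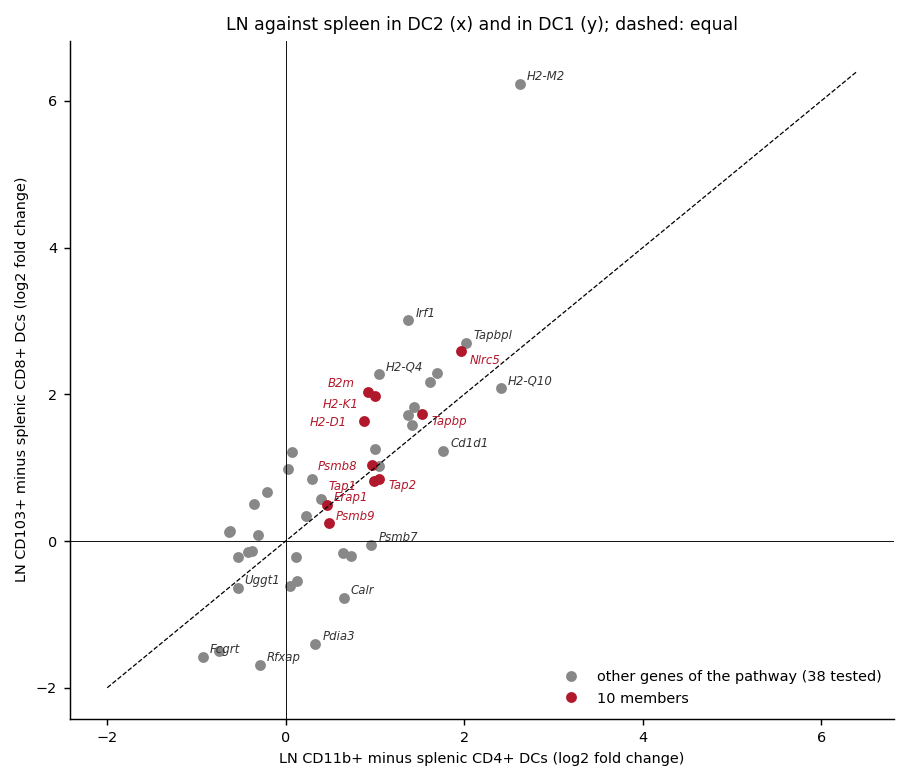
Log2 fold change of LN against spleen in DC2 (x axis, LN CD11b+ minus splenic CD4+) and in DC1 (y axis, LN CD103+ minus splenic CD8+). Red points are the 10 genes, grey points 38 further pathway genes, and the dashed line marks equal change; the axes share no library. All 10 red points lie above 0 on both axes, and H2-M2 lies farthest from the line.

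The third immunoproteasome subunit, Psmb10, rose with Psmb8, from 79.1 ± 18.5 CPM in splenic CD8+ to 260.7 ± 12.5 CPM in the LN CD103+ libraries (1.72 ± 0.24, adjusted p = 1.23e-05) and in DC2 from between 35.5 and 83.2 CPM in the spleen to between 144 and 164 CPM in the LN (1.37 ± 0.24, adjusted p = 0.000236). In monocytes it was at 137 ± 5.58 CPM, 0.21 ± 0.18 from the mean of DCs (adjusted p = 0.359), where Psmb8 was at -1.50 ± 0.19. The constitutive subunits Psmb5, Psmb6 and Psmb7 had values from -0.22 to -0.05 in DC1, none past the threshold, and in DC2 only Psmb7 rose (0.96 ± 0.27, adjusted p = 0.0092). Psmb6 and Psmb7 were 2.5-fold and 2.82-fold higher in splenic CD8+ than CD4+ DCs, with Psmb5 at 0.69 ± 0.27 (adjusted p = 0.0699).

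Of 5 chaperones and peptide editors, Tapbpl (a tapasin-related editor) rose in both lineages, while Calr (calreticulin), Pdia3 (the disulfide isomerase bound to tapasin) and Uggt1 (a folding sensor) fell in LN CD103+ against splenic CD8+ DCs. In DC2, Calr rose (0.65 ± 0.22, adjusted p = 0.0254), Uggt1 fell (-0.54 ± 0.17, adjusted p = 0.0196) and Pdia3 did not pass (0.33 ± 0.34). Pdia3 was the pathway gene with the largest positive difference between splenic CD8+ and CD4+ DCs, at 598.5, 547 and 1101 CPM against 177, 66.3 and 240.5 CPM (2.21 ± 0.36, adjusted p = 0.000136). Its LN to spleen change differed between lineages (-1.73 ± 0.48, adjusted p = 0.0259), a call lost without splenic CD8+ DC replicate 3 (-1.34, adjusted p = 0.082), LN CD103+ DC replicate 2 or 3 (-1.69 and -1.75) or LN CD11b+ DC replicate 1 (-1.55), and in limma (-1.85, adjusted p = 0.0587). Of 9 regulators, 3 rose and 1 fell in DC1, where 23.8% of all genes rose and 21.8% fell, and 1 rose and 2 fell in DC2, where 19.3% rose and 13.8% fell. Rfxap, a subunit of the RFX complex on class I and II promoters, had the lowest value in DC1, from 39.3 ± 2.23 CPM in splenic CD8+ to 12.1 ± 1.68 CPM in the LN CD103+ libraries (-1.69 ± 0.23, adjusted p = 9.54e-06). Irf1, another of the regulators, went the other way. It had 182.1 ± 65.7 CPM in splenic CD8+ and 1472 ± 159.9 CPM in LN CD103+ DCs. In DC2 it had 282.4 ± 37.5 CPM in the spleen and 728.9 ± 46.3 CPM in the LN (SD, n = 3). Of 4 further peptidases, 2 rose and 1 fell in DC1 and none passed in DC2.

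Class I and class I-like heavy chains other than H2-K1 and H2-D1 were described with the same counts. Of 13 tested, 10 rose and 1 fell in DC1 of the LN against spleen, where 23.8% of all genes rose and 21.8% fell. In DC2, 8 rose and 1 fell, where 19.3% of all genes rose and 13.8% fell. H2-M2, a non-classical heavy chain gene, had the largest value in each of 5 comparisons. It was at 2.27, 5.53 and 12.1 CPM in the splenic CD8+ libraries, 78.0, 100.9 and 94.4 CPM in the splenic CD4+ libraries, 584, 471 and 458 CPM in the LN CD103+ libraries and 650.2, 706 and 322 CPM in the LN CD11b+ libraries. Monocytes had 3 counts, all in replicate 1. The LN to spleen change was 6.23 ± 0.49 in DC1 and 2.62 ± 0.41 in DC2, and H2-M2 was lower in splenic CD8+ than CD4+ DCs (-3.76 ± 0.45, adjusted p = 5.31e-06). Set against the 3 monocyte counts, splenic CD8+ DCs had 51.9 times the level (95% counting interval from an exact binomial, 17.4 to 254) and LN CD11b+ DCs 4570 times (1564 to 22165), intervals that cover counting error only.

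H2-Q4 was the heavy chain gene with the largest difference between LN subtypes, at 34.6, 33.0 and 58.2 CPM in CD103+ and 22.1, 19.2 and 18.8 CPM in CD11b+ DCs (1.06 ± 0.27, adjusted p = 0.0118), lost without LN CD103+ DC replicate 3 (0.75, adjusted p = 0.104). H2-T24 was the pathway gene most above the DCs in monocytes, 59.9 ± 8.14 CPM against 10.3 to 24.3 CPM in the means of the DC subtypes (1.98 ± 0.20, adjusted p = 1.24e-07). Fcgrt, the class I-like neonatal Fc receptor chain, was the pathway gene with the largest fall in LN CD11b+ against splenic CD4+ DCs (-0.93 ± 0.29, adjusted p = 0.0178), lost without splenic CD4+ DC replicate 1 (-0.85), splenic CD4+ DC replicate 3 (-0.62) or LN CD11b+ DC replicate 1 (-0.89), and in limma (-0.84). Transcripts of H2-Q4, H2-Q6 and H2-Q7 share 36.4%, 35% and 26.5% of their 50-base stretches with other genes, and those of H2-T22 and H2-T10 53.5% and 50.4%, so that their separate levels are uncertain. The share was 3.17% for H2-T24.

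**Figure D5:**
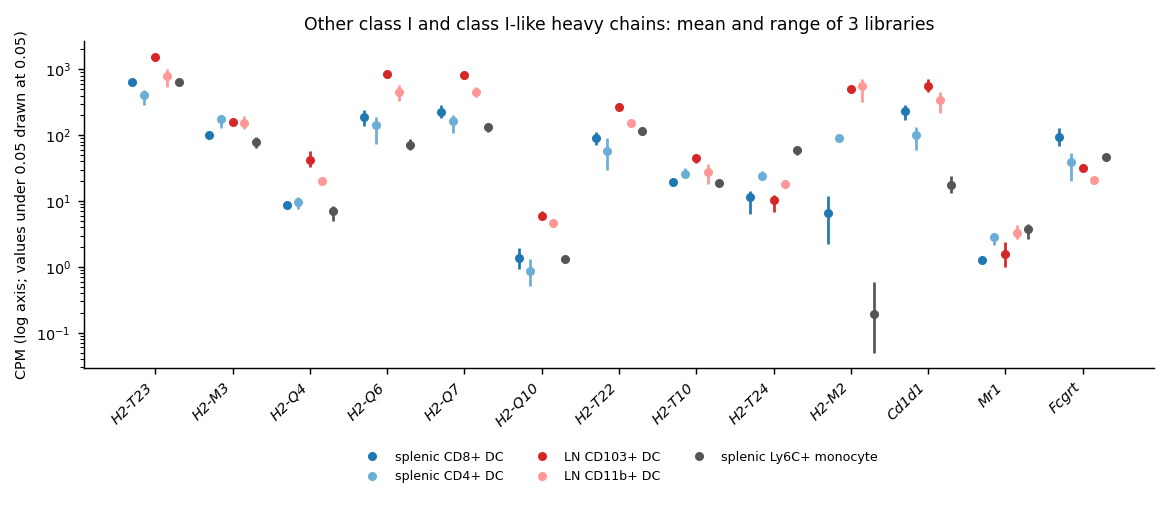
CPM of 13 class I and class I-like heavy chain genes other than H2-K1 and H2-D1 (log y axis, values under 0.05 drawn at 0.05), by gene (x axis) and subtype (colour). Points are means and lines the range of 3 libraries. The 2 LN subtypes are the highest for H2-Q6, H2-Q7, H2-T22 and H2-M2, and monocytes are the highest for H2-T24.

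Across the 15 libraries, log2 CPM of the 10 genes was most alike for Tapbp and Nlrc5 (Pearson r = 0.948), H2-K1 and H2-D1 (r = 0.929), Erap1 and Tap2 (r = 0.925) and Tap1 and Psmb9 (r = 0.907), and least alike for H2-D1 and Psmb9 (r = 0.016). Libraries of a subtype share its level, so that these describe 5 subtypes more than 15 independent points. Among 8934 genes with a mean of at least 10 CPM, the gene most like each was Ecpas for B2m (r = 0.980), Dusp5 for H2-K1 (r = 0.980), Rapgef2 for H2-D1 (r = 0.974), 1700022I11Rik for Tap1 (r = 0.977), Psme1 for Tap2 (r = 0.972), Map4 for Tapbp (r = 0.987), Tmem8 for Psmb8 (r = 0.971), Got2 for Psmb9 (r = 0.960), Apol10b for Erap1 (r = 0.935) and Serpinb1a for Nlrc5 (r = 0.981). Next came Mir8097 and Gga2 for B2m (r = 0.977 and 0.972), Tmem127 and Traf3 for H2-K1 (r = 0.975 and 0.972), Necap2 and Aplp2 for H2-D1 (r = 0.971 and 0.970), Vcp for Tap1 (r = 0.974) and Atp6v0e for Tap2 (r = 0.967). For the others these were Eps15 and Fut8 for Tapbp (r = 0.981 and 0.972), Tbc1d8 and Vrk2 for Psmb8 (r = 0.968 and 0.964), Lrrc40 and Tbca for Psmb9 (r = 0.956 and 0.946), Cnn2 and Aars for Erap1 (r = 0.929 and 0.928) and H2-Q1 and Epsti1 for Nlrc5 (r = 0.979 and 0.974).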

How the data were processed

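The 15 murine libraries came from polyadenylated RNA of sorted cells, made into amplified cDNA and sequenced on an Ion Torrent instrument without molecular identifiers. The authors mapped the reads to mm10 with STAR 2.4.0j and counted unique reads per Ensembl gene with featureCounts (Subread 1.5.2), without strand and with a read over several genes counted for each. The deposited counts are raw counts per gene as the authors made them. Each monocyte library was the sum of 2 sequencing runs, which no DC library was. Monocytes and DCs therefore also differ in sequencing runs. Between the runs of a monocyte library, CPM of the 10 genes had ratios of 0.901 to 1.32 (run 2 to run 1). For the deposited TPM, the authors divided counts by summed exon length and scaled each library, and TPM recomputed here differed by at most 9.6e-10. Symbols, coordinates and exon overlaps were taken from GENCODE vM21 (37607 of 38924 identifiers), and upstream sequences from RefSeq, GRCm38.p6, the same build as mm10.

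In R 4.3.3, a gene entered the tests if 3 or more libraries exceeded 1 CPM, and all 15 libraries entered 1 edgeR 4.0.16 quasi-likelihood fit of the counts with subtype as the factor (TMM factors 0.883 to 1.1, common dispersion 0.0681, 10 residual degrees of freedom). P values were adjusted by Benjamini-Hochberg over all 14456 genes tested, with a threshold of 0.05. Ratios used exact permutation tests, which took all libraries as independent, apart from the paired test. Log2 CPM for correlations had a prior count of 2. The fit was tested on simulated counts.

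The 10 genes and the gene lists were chosen with earlier results of these data known. Named pathway genes are Psmb10, Psmb5, Psmb6, Psmb7 and, in each comparison, the called gene with the largest fold change in each direction, and for each of the 10 the 3 genes with the highest correlation, some of which are not reported here. Calr, Uggt1, Tapbpl, Irf1, H2-T3 and Itgae were named after their values were seen. Alternatives were RLE size factors, no TMM factors, DESeq2 1.42.0, no low-count filter (23169 genes), a call that also needed a log2 change of 1 or more in size, limma 3.58.1 with trend on log2(TPM + 1), the replicate number as a block, only the 6 libraries compared, and leaving out each library. The paired permutation test of ratios was added after seeing the data. Pairing was checked by correlating deviations from subtype means between libraries of the same number. All 3 correlations were over 0.1 for splenic CD8+ with CD4+ DCs (0.162, 0.339 and 0.375) and LN CD103+ with CD11b+ DCs (0.222, 0.179 and 0.259). The same held for LN CD11b+ with splenic CD4+ DCs (0.197, 0.243 and 0.266) and LN CD103+ with splenic CD4+ DCs (0.117, 0.124 and 0.146). The numbers therefore paired those libraries, which no label states. For LN CD103+ with splenic CD8+ DCs the values were lower (0.0374, 0.086 and 0.0689), though above those of libraries with other numbers (at most 0.0183). Deviations cancel within a subtype, so that values for other numbers fall as those for the same number rise. They are therefore no separate baseline. They were mixed for LN CD11b+ with splenic CD8+ DCs (0.0163, 0.182 and 0.118).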

Additional observations from a re-analysis of the deposited data

Results flagged for a closer look

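For 4 named genes, none of them among the 10, the change from spleen to LN differed between DC1 and DC2 by a test of the difference itself (interaction, edgeR, 3 libraries per subtype). The difference, DC1 change minus DC2 change on the log2 scale, was 3.61 for H2-M2 (adjusted p = 0.000396), 1.24 for H2-Q4 (adjusted p = 0.0466), -1.41 for Rfxap (adjusted p = 0.00835) and -1.73 for Pdia3 (adjusted p = 0.0259). Of the 10, B2m (1.11, adjusted p = 0.0525) and H2-K1 (0.98, adjusted p = 0.0631) fell short in this fit. Both passed with the replicate block, in DESeq2 and without the low-count filter. Groups of 3 are too small for a test of single outlying libraries.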

How the results depend on the processing

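Of the 31 calls of the 10 genes, 24 held with each library left out and under each alternative that could be fitted for them, not counting the limit on size. Of 10 genes, those called in splenic CD8+ against CD4+ DCs went from 4 to 2 in limma, 2 in a fit of only the 6 libraries and 7 with the replicate block, and ranged from 2 to 6 with 1 library left out. Between LN CD103+ and LN CD11b+ DCs the 4 ranged from 3 to 4, in LN against spleen the 8 from 7 to 9 (DC1) and 7 to 8 (DC2), and the 7 of monocytes from 7 to 8. The interaction went from 0 to 1 with RLE factors and to 2 in DESeq2, without the filter and with the replicate block, and ranged from 0 to 2. Asking for a log2 change of at least 1 left 2 in the splenic DCs, 2 in the LN DCs, 4 in DC2 (LN against spleen) and 4 in monocytes. Of the 38 pathway genes, that limit left 9 of 18 in the splenic DCs, 3 of 8 in the LN DCs, 12 of 20 in DC2 and 11 of 21 in monocytes. The 8 of the LN DCs became 14 with the replicate block (left-out range 4 to 11), the 20 of DC2 became 13 in the 6 libraries, and the 8 of the interaction became 5 without TMM factors and 5 in limma (range 5 to 9). The other ranges were 16 to 19, 21 to 26 (DC1), 15 to 21 (DC2) and 17 to 21 (monocytes). The 13 neighbouring pairs became 7 in limma and 2 with the limit on size (range 9 to 15). Without TMM factors the median of all genes moved to -0.197 in DC1 and -0.209 in the interaction, where Psmb8 (-0.09) and Erap1 (-0.10) turned sign. With 1 library left out, values that passed in no fit turned sign: H2-D1 in monocytes (-0.01 to 0.09), Erap1 in splenic DCs (-0.00 to 0.45), and in the interaction Tap1 (-0.44 to 0.14), Tap2 (-0.49 to 0.04), Tapbp (-0.12 to 0.49), Psmb8 (-0.08 to 0.23), Psmb9 (-0.39 to 0.02) and Erap1 (-0.13 to 0.32). So did 3 ratios, B2m to heavy chains (-0.04 to 0.36) and Tap1 to Tap2 (-0.15 to 0.11) in LN against spleen and Psmb8 to Psmb5 in DC1 against DC2 (-0.28 to 0.05). Psmb8 to Psmb5 in LN against spleen ranged from 1.02 to 1.16. Apart from the smaller numbers of libraries and the limit on size, the cause was not tested. No call beyond those given beside the results changed with the replicate block.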
